A study of Homo sapiens with 12 samples.

Results

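The metallothionein genes MT1E, MT1F, MT1G, MT1M, MT1X and MT2A were examined in LNCaP cells after depletion of BRG1, the chromatin remodelling ATPase encoded by SMARCA4. The 6 genes were taken by symbol from the 63568 genes of the deposited TPM table (TPM is the length-scaled abundance of a transcript in a library of fixed total), and all 6 were found. LNCaP is an androgen-responsive human cell line from a prostate cancer metastasis. The cells received a non-targeting siRNA (si-NT) or 1 of 2 siRNAs against SMARCA4, and RNA was sequenced at 72 h and 144 h, with 2 libraries per siRNA and time point and 12 in all. Cells of every group at 144 h had been split and transfected again at 72 h. At each time point the 4 libraries of both SMARCA4 siRNAs form the BRG1 depleted group and are compared with 2 si-NT libraries. The siRNAs are named 2 and 3 as in the header of the table, because the sample labels number them differently and the labels of 1 library at 72 h conflict on the siRNA. That library is BRG1 depleted by either label. Every value comes from 1 cell line with partial depletion by siRNA, and no source says whether the replicates were separate cultures. The p-values below therefore measure only the spread between these libraries, which may be technical. Where both siRNAs form 1 group, that spread also holds any difference between the siRNAs.

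Metallothioneins are small, cysteine-rich proteins that bind zinc and copper and also take up toxic metals such as cadmium. Their genes are among the most metal-inducible in the genome: the zinc-sensing transcription factor MTF1 binds short metal response elements in their promoters, and glucocorticoids and oxidative stress also induce several of them. Prostate epithelium is known for its high zinc content, and metallothioneins buffer free zinc in the cytoplasm. MT2A and the MT1 genes encode closely related proteins, and they differ in how strongly each is used in a given tissue.

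The 6 genes lie in 1 cluster on chromosome 16 (GRCh37, GENCODE annotation). MT2A (ENSG00000125148.6) stands at chr16:56642496-56643409 on the forward strand. Counted from its start site, the start of MT1E (ENSG00000169715.10) is 16.9 kb away, that of MT1M (ENSG00000205364.3) 24.1 kb, that of MT1F (ENSG00000198417.5) 49.1 kb, that of MT1G (ENSG00000125144.9) 59.5 kb and that of MT1X (ENSG00000187193.8) 73.9 kb. MT1G, at chr16:56700642-56701977, is the only one of the 6 on the reverse strand. The promoter table from RefSeq (GRCh38.p14) holds MT1X and MT2A. The 250 bases before each start are shown because metal response elements are the defining feature of these promoters, with matches to the core TGCACNC or TGCGCNC, searched on both strands, in capitals. The MT1X sequence is chr16:56682220-56682469 and that of MT2A is chr16:56608334-56608583, both on the forward strand.
MT1X: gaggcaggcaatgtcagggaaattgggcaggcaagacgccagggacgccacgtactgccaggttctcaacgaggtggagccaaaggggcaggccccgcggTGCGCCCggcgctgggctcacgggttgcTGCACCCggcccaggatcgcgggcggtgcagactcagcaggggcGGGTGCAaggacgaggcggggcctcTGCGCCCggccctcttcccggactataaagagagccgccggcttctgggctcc
MT2A: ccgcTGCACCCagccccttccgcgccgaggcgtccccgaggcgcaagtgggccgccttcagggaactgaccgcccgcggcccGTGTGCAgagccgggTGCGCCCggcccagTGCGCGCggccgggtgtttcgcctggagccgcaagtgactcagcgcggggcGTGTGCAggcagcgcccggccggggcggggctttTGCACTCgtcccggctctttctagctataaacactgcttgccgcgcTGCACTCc
MT1X has 4 matches, whose first bases are at -150, -122, -78 and -53 counted from the start, and MT2A has 7, with first bases from -246 to -8. On the gene's own strand are 3 of the 4 and 5 of the 7. A TATAAA begins at -30 in MT1X and at -29 in MT2A. Of 35116 promoters of the same length, 24.8% had at least 1 match, 0.37% at least 4 and 0.0313% at least 7, and TATAAA was found in 6.8%. G and C made up 70.0% of the MT1X bases and 73.2% of the MT2A bases, and the promoters compared were not matched for this. A match describes the letters of the sequence and does not show binding.

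The deposited values are TPM, which are scaled to gene length and to the total of each library, so the levels of different genes can be compared roughly. How the tool that made TPM treats short transcripts is unknown. The number of reads behind a value cannot be recovered from TPM, so depth is unknown and the only error given is the spread between libraries. In bulk RNA, fewer cells with a transcript and less of it per cell cannot be told apart. The cells expressed the luminal prostate genes of LNCaP, with KLK3 at 241.17 to 841.47 TPM and FOLH1 at 329.98 to 596.65 TPM, whereas the basal markers KRT5, KRT14 and TP63 stayed at or below 0.33 TPM, and the leukocyte marker PTPRC at or below 0.01 TPM. Of the fibroblast markers, COL1A2 was listed at 0 throughout, COL1A1 was at 3.1 to 9.11 TPM and PDGFRB at 0.14 to 0.89 TPM. SMARCA4 mRNA changed by -2.07 on the log2 scale at 72 h and by -2.66 at 144 h (limma, adjusted p = 0.000538 and 1.01e-05). The paper's Western blots show that BRG1 protein was reduced less at 72 h than at 144 h. With siRNA 2, 15.9 to 21.7 TPM of SMARCA4 remained, and with siRNA 3, 11.42 to 19.14 TPM.

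MT2A, MT1X and MT1G were abundant transcripts in these cells, MT1F was present at a far lower level, and MT1E and MT1M were listed at or near 0. Over all 12 libraries the mean was 169.16 TPM for MT2A, 130.53 TPM for MT1X, 84.06 TPM for MT1G and 13.05 TPM for MT1F, which placed them at ranks 770, 1047, 1702 and 7712 of the 63568 genes. MT2A was the most abundant of the genes in 9 libraries and MT1X in the other 3, all of them siRNA 3 libraries. MT1E was listed at 0 in every library, and MT1M was listed at 0 in all but si-NT replicate 2 at 72 h, where it had 0.07 TPM. A listed 0 in a table without read counts need not mean no expression, since the broadly used copper transporter gene ATP7A was also listed at 0 in all 12 libraries. MT1E and MT1M therefore did not reach the limit for testing, which was 1 TPM in at least 2 libraries, and the counts below are over the 4 genes that did. No 100-base stretch of any member's transcripts matched another metallothionein transcript exactly. Allowing 2 mismatches, 5.29% of the stretches of MT1X matched another metallothionein transcript, most often the pseudogene MT1XP1, as did 5.07% of MT2A, 3.97% of MT1G and 0% of MT1F.

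**Figure D1:**
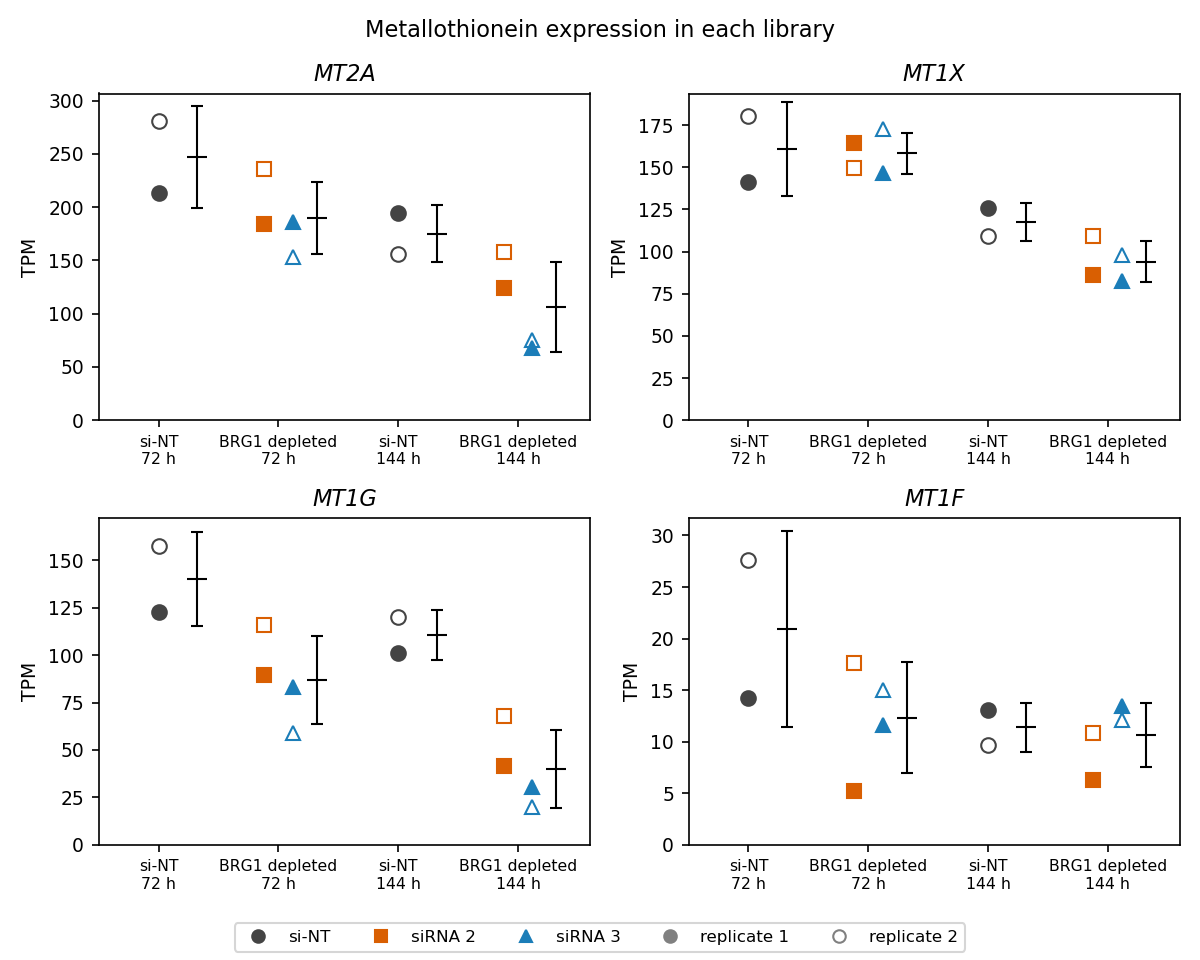
TPM of the 4 detected metallothionein genes in each of the 12 libraries, grouped by treatment and time, with filled symbols for replicate 1, open symbols for replicate 2, and bars for the mean and SD of each group (n = 2 for si-NT, n = 4 for BRG1 depleted). MT1G at 144 h ranges from 19.95 to 67.67 TPM after BRG1 depletion, below the 101.25 and 120.09 TPM of si-NT.

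MT1G, an MT1 isoform whose promoter is often methylated in prostate and other tumours, had the largest decrease of the 4 at 144 h. At 72 h the si-NT libraries held 122.61 and 157.79 TPM, and it was at 89.55 and 115.79 TPM with siRNA 2, and at 83.2 and 59.02 TPM with siRNA 3. At 144 h it was at 101.25 and 120.09 TPM in si-NT, at 41.57 and 67.67 TPM with siRNA 2, and at 30.23 and 19.95 TPM with siRNA 3. All 4 BRG1 depleted libraries lay below both si-NT libraries at each time point, with the siRNA 3 libraries lowest. The mean at 72 h was 140.2 ± 24.88 TPM (SD, n = 2) for si-NT and 86.89 ± 23.33 TPM (SD, n = 4) after depletion. The corresponding means at 144 h were 110.7 ± 13.32 TPM (SD, n = 2) for si-NT and 39.85 ± 20.54 TPM (SD, n = 4) after depletion.

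MT2A, the most widely expressed metallothionein and the standard readout of metal and glucocorticoid induction, was at 213.34 and 281.06 TPM in si-NT at 72 h. Depleted cells then had 184.19 and 235.74 TPM with siRNA 2 and at 185.8 and 153.63 TPM with siRNA 3. At 144 h it was at 194.22 and 156.31 TPM in si-NT, at 124.41 and 157.9 TPM with siRNA 2, and at 67.71 and 75.62 TPM with siRNA 3. The siRNA 3 libraries at 144 h stood apart as the lowest of all 12, and 1 siRNA 2 library at each time point overlapped the si-NT range. The mean at 144 h was 175.3 ± 26.81 TPM (SD, n = 2) for si-NT and 106.4 ± 42.51 TPM (SD, n = 4) after depletion.

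MT1X, which lies at the far end of the cluster from MT2A, was at 141.27 and 180.36 TPM in si-NT cells at 72 h, at 164.14 and 149.87 TPM with siRNA 2, and at 146.7 and 172.83 TPM with siRNA 3. All 4 BRG1 depleted libraries were inside the si-NT range. At 144 h it was at 125.76 and 109.46 TPM in si-NT, at 86.08 and 109.24 TPM with siRNA 2, and at 82.73 and 97.96 TPM with siRNA 3. The 4 BRG1 depleted libraries were then below both si-NT libraries, but the nearest pair differed by less than 1 TPM.

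MT1F was at 14.21 and 27.65 TPM in si-NT cells at 72 h, at 5.21 and 17.62 TPM with siRNA 2, and at 11.57 and 14.97 TPM with siRNA 3. At 144 h its values were 13.07 and 9.7 TPM in si-NT, 6.29 and 10.8 TPM with siRNA 2, and 13.42 and 12.12 TPM with siRNA 3. The groups overlapped at both time points, and siRNA 2 replicate 1 was the lowest library each time. The si-NT libraries at 72 h were far apart, with a mean of 20.93 ± 9.504 TPM (SD, n = 2).

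The first comparison asked whether depletion changed the metallothionein mRNAs at 72 h. None of the 4 passed limma's test on log2(TPM + 1) at a Benjamini-Hochberg adjusted p under 0.05, over 16337 genes of which 1.68% passed, and 0 of the 4 had an unadjusted p under 0.05, beside 14.3% of all genes tested. The log2 fold change of MT1G was -0.71 (standard error 0.38, 95% interval -1.54 to 0.12, adjusted p = 0.436). For MT1F it was -0.76 (standard error 0.41, adjusted p = 0.448), with an interval from -1.67 to 0.15. MT2A had a value of -0.38 (standard error 0.30, adjusted p = 0.62), and its interval ran from -1.04 to 0.27. MT1X was at -0.01 (95% interval -0.31 to 0.28), the narrowest interval of the 4. The median of the 4 was -0.55, beside 0.06 over all genes tested. MT1G was the one member whose 4 BRG1 depleted libraries were all below both si-NT libraries at 72 h, as were 6.93% of all genes tested.

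The si-NT library replicate 2 at 72 h held the highest value of all 12 libraries for each of the 4 genes, and was the one library with any MT1M. Without it, the log2 fold changes at 72 h were -0.53 for MT1G, -0.18 for MT2A, 0.16 for MT1X and -0.30 for MT1F, with none called. HERPUD1, an endoplasmic reticulum stress gene beside the cluster that was singled out after its values were seen, was at 245.18 TPM in that library and at 55.65 to 88.09 TPM in the other 11. Whether this has a part in the metallothionein values was not tested.

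At 144 h, MT1G fell by 1.58 on the log2 scale in BRG1 depleted cells, to 0.334 of its si-NT level (standard error 0.38, 95% interval -2.41 to -0.75, limma, adjusted p = 0.0117). It was the one called member, 1 of the 4 tested against 24.4% of all genes tested (10.8% lower and 13.6% higher), so the count of called members is near the background. MT1G was also past a limit of -1.5 on limma's log2 fold change. The size of the limit is that in the paper's results, where it was applied to edgeR fits. Of all genes tested, 0.404% were under that limit with an adjusted p under 0.05. Over all alternatives run, the MT1G value ran from -1.972 to -1.305, the latter without siRNA 3 replicate 2 at 144 h. With siRNA 2 alone it was at -1.04, short of the limit, and with siRNA 3 alone at -2.12. The call was lost without si-NT replicate 1 (log2 fold change -1.70, adjusted p = 0.0565) and without si-NT replicate 2 (-1.46, adjusted p = 0.11) at 144 h, where 1 control library remained. MT1G and MT1X were the members whose 4 BRG1 depleted libraries were all below both si-NT libraries, as were 22.5% of all genes tested.

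The other 3 members did not pass the test at 144 h. MT2A stood at -0.79 (standard error 0.30, 95% interval -1.45 to -0.14, adjusted p = 0.0743), and it was called in the fit with 6 groups (adjusted p = 0.00835), with median-of-ratios size factors (adjusted p = 0.0426) and without siRNA 2 replicate 2 at 144 h (adjusted p = 0.0182). For MT1X the value was -0.33 (standard error 0.13, 95% interval -0.62 to -0.03, adjusted p = 0.0993), called only without that same siRNA 2 library among all alternatives run (adjusted p = 0.0483). MT1F was at -0.12 (standard error 0.41, adjusted p = 0.863), and its 95% interval from -1.03 to 0.79 covered changes of either sign. The median of the 4 was -0.56, beside 0.03 over all genes tested.

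Scaling to the ERCC spike-ins moved the median of all genes at 144 h to -0.31 on the log2 scale. By siRNA, this median was -0.072 with siRNA 2 and -0.555 with siRNA 3. The spike-ins made up 0.805% and 1.34% of the TPM in the si-NT libraries at 144 h. In the BRG1 depleted libraries at 144 h they made up 1.04% to 1.97%. Relative to the median of -0.31, MT1G was at -1.66, MT2A at -0.88, MT1X at -0.41 and MT1F at -0.18. Without this scaling the same values relative to the median were -1.61, -0.82, -0.35 and -0.15. The scaling acts on whole libraries, so it leaves the differences between members nearly as they were.

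Whether the change grew between the time points was tested directly. The change of MT1G at 144 h minus that at 72 h was -0.87 (95% interval -2.04 to 0.30, adjusted p = 0.537), and for MT2A, MT1X and MT1F it was -0.41, -0.31 and 0.64. Without si-NT replicate 1 at 72 h these 3 values were -0.21, -0.14 and 1.10, and without si-NT replicate 2 at 72 h that of MT1F was 0.18. None of the 4 was called or had an unadjusted p under 0.05, beside 0.0184% and 11.9% of all genes tested, so a difference between the time points was not shown for any member.

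All 4 members had lower means at 144 h than at 72 h in si-NT cells, but none of these differences was called. The log2 differences were -0.77 for MT1F, -0.49 for MT2A, -0.44 for MT1X and -0.33 for MT1G. Without si-NT replicate 2 at 72 h they shrank to -0.31, -0.29, -0.27 and -0.15. MT1X had an unadjusted p of 0.015 (adjusted p = 0.974). With limma, 0% of all genes tested were called in this comparison, and 671 of the 16337 had an unadjusted p under 0.05. In BRG1 depleted cells, MT1X fell by 0.75 from 72 h to 144 h (standard error 0.11, limma, adjusted p = 0.00589), with 158.4 ± 12.26 TPM (SD, n = 4) at the earlier and 94.0 ± 12.08 TPM (SD, n = 4) at the later time point. That made 1 of 4 members called lower, beside 1.68% of all genes tested, and with ERCC scaling the MT1X call was lost (adjusted p = 0.358). MT1G was at -1.20 (adjusted p = 0.0521) and MT2A at -0.90 (adjusted p = 0.0619), just outside the threshold, and both were called without siRNA 2 replicate 2 at 144 h (adjusted p = 0.0194 and 0.0272). MT1F was at -0.13 (adjusted p = 0.862).

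**Figure D2:**
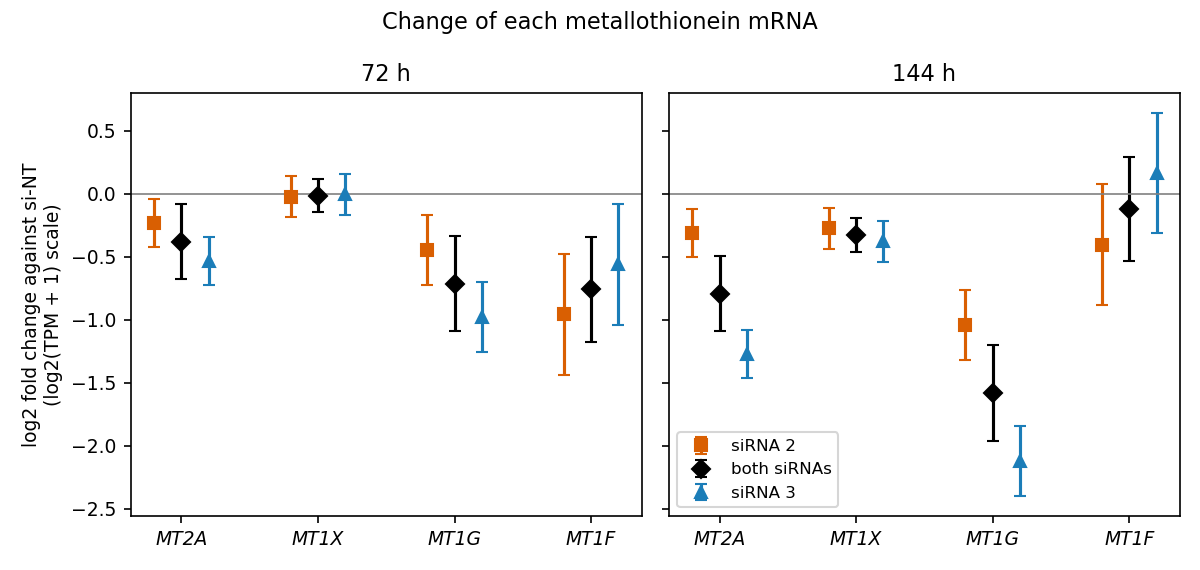
Log2 fold change against si-NT on the log2(TPM + 1) scale for each detected metallothionein gene at 72 h (left) and 144 h (right), for siRNA 2, siRNA 3 and both together, with bars for the standard error. At 144 h MT1G is at -1.04 with siRNA 2 and -2.12 with siRNA 3, and MT2A at -0.31 and -1.27, while the MT1X values lie close together.

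The siRNAs were then taken one at a time, in a fit with 6 groups of 2 libraries, and both are compared with the same si-NT libraries. At 144 h MT1G fell by 1.04 with siRNA 2 (standard error 0.28, limma, adjusted p = 0.0289) and fell by 2.12 with siRNA 3 (standard error 0.28, adjusted p = 0.00185). The siRNA 2 call was lost without si-NT replicate 1 (adjusted p = 0.0741), si-NT replicate 2 (adjusted p = 0.163) or siRNA 2 replicate 1 (log2 fold change -0.70, adjusted p = 0.178) at 144 h, whereas the siRNA 3 call held in all 18 alternatives run. MT2A fell by 1.27 with siRNA 3 (standard error 0.19, adjusted p = 0.0032), again in all 18 alternatives, and stood at -0.31 with siRNA 2 (adjusted p = 0.274). MT1X was at -0.27 with siRNA 2 (adjusted p = 0.263) and -0.38 with siRNA 3 (adjusted p = 0.134). MT1F was at -0.40 with siRNA 2 and at 0.17 with siRNA 3, the latter at -0.425 with ERCC scaling. So 1 of 4 members was called lower with siRNA 2, beside 7.67% of all genes tested, and 2 of 4 with siRNA 3, beside 10.4%.

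At 72 h no member was called with either siRNA, beside 1.57% of all genes tested with siRNA 2 and 0.655% with siRNA 3. With siRNA 2, 0 of the 4 members had an unadjusted p under 0.05, and with siRNA 3, 2 did, beside 16.9% and 13% of all genes tested. These were MT1G at -0.98 (unadjusted p = 0.0063, adjusted p = 0.169) and MT2A at -0.53 (unadjusted p = 0.0202, adjusted p = 0.272). The corresponding values with siRNA 2 were -0.45 and -0.23.

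The direct test between the siRNAs called no member at either time point. At 144 h, siRNA 3 minus siRNA 2 was -0.96 for MT2A (95% interval -1.39 to -0.53, unadjusted p = 0.000621, limma, adjusted p = 0.101) and -1.08 for MT1G (95% interval -1.71 to -0.45, unadjusted p = 0.00354, adjusted p = 0.172). For MT1X the difference was -0.11 (95% interval -0.47 to 0.26) and for MT1F 0.57 (95% interval -0.51 to 1.64). Of all genes tested, 0.331% were called in this comparison at 144 h and 0.141% at 72 h. An unadjusted p under 0.05 at 144 h was found for 2175 of the 16337 genes, 1618 of them lower with siRNA 3. At 72 h the members' differences ran from -0.53 for MT1G to 0.40 for MT1F, and 0 of the 4 had an unadjusted p under 0.05, beside 8.33% of all genes tested. The SMARCA4 mRNA left at 144 h was 15.9 and 16.16 TPM with siRNA 2 and 11.42 and 17.44 TPM with siRNA 3, and its part in these differences was not tested.

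**Figure D3:**
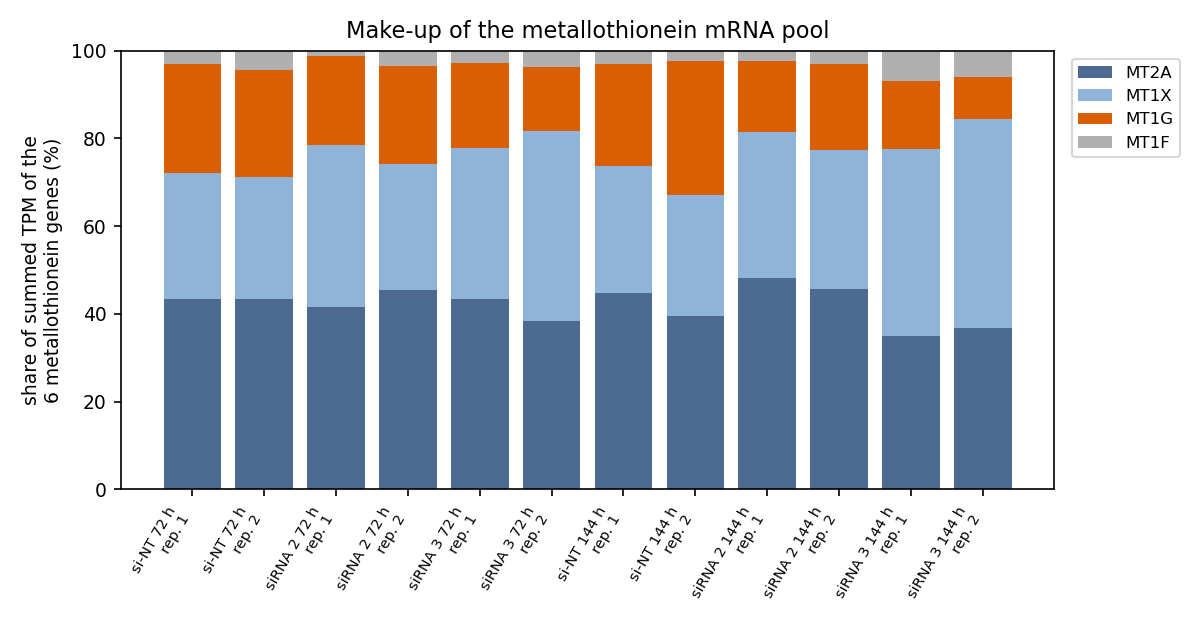
Share of the summed TPM of the metallothionein genes taken by MT2A, MT1X, MT1G and MT1F in each of the 12 libraries, as stacked bars that add up to 100%. The MT1G share is 23.3% to 30.4% in the 4 si-NT libraries and 9.7% to 22.3% in the 8 BRG1 depleted libraries.

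Since the members moved by different amounts, the make-up of the metallothionein mRNA pool also differed between libraries. The members summed to 491.43 and 646.93 TPM in si-NT cells at 72 h and to 400.45 to 519.02 TPM in BRG1 depleted cells. At 144 h the sums were 434.3 and 395.56 TPM in si-NT and 194.09 to 345.61 TPM in BRG1 depleted cells, with siRNA 3 giving the lowest pair, at 194.09 and 205.65 TPM. MT1G made up 24.9% and 24.4% of the sum in si-NT cells at 72 h and 14.7% to 22.3% in depleted cells, and at 144 h it made up 23.3% and 30.4% in si-NT and 9.7% to 19.6% in depleted cells. Every BRG1 depleted library therefore had a smaller MT1G share than every si-NT library, but the nearest values were 22.3% and 23.3%. How often other genes separate in this way was not counted. MT1X took 27.7% to 29.0% in the 4 si-NT libraries and 28.9% to 47.6% in the depleted libraries, with the highest shares at siRNA 3. The MT2A share ran from 34.9% to 48.2% and overlapped between the groups, while MT1F took 1.18% to 6.91%.

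Across the 12 libraries, log2(TPM + 1) of MT1G and MT2A had a Pearson r of 0.935, that of MT1X and MT2A 0.798, and that of MT1G and MT1X 0.69. MT1F followed the others less closely, with r from 0.298 to 0.376. These values describe 12 libraries that share groups and total scaling, and no test was made. The genes whose pattern was most like the mean of the 4 members over the 12 libraries were USE1 (r = 0.958), which encodes a SNARE of the endoplasmic reticulum, CPS1 (r = 0.95), the mitochondrial carbamoyl phosphate synthetase of the urea cycle, STXBP6 (r = 0.946), PCBP2 (r = 0.944), an RNA-binding protein, and ALKBH3 (r = 0.942), a DNA alkylation repair enzyme.

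Of the other metallothionein genes MT1A, MT1B, MT1H, MT1HL1, MT3 and MT4, 4 were listed at 0 in all 12 libraries, and MT1B and MT3 reached at most 0.71 and 1.12 TPM. Of 9 pseudogenes and non-coding copies, 8 were matched, 4 of these were listed at 0 throughout, and 4 were tested. MT1DP, a transcribed pseudogene inside the cluster, was listed at 0 in both si-NT libraries at 72 h and had 1.58 to 3.68 TPM in the BRG1 depleted libraries (limma, adjusted p = 0.0317). At 144 h it had 1.81 and 2.45 TPM in si-NT and 1.69 to 6.22 TPM in depleted cells and was not called (adjusted p = 0.342). Reads of such copies may not always be told from those of the functional genes, which was not tested. No 100-base stretch of a member matched another metallothionein transcript exactly, and at most 5.29% (MT1X) did with 2 mismatches allowed.

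Of 8 genes on either side of the cluster, 6 were tested, and none was called at 72 h. At 144 h, NUDT21, which encodes a pre-mRNA cleavage factor, fell by 0.44 (limma, adjusted p = 0.0317), the one neighbour called lower.

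MTF1, the zinc sensor that drives metallothionein transcription, was at 4.2 to 9.35 TPM in the 12 libraries. Its log2 fold change was -0.15 at 72 h (95% interval -0.68 to 0.38, adjusted p = 0.842) and -0.32 at 144 h (95% interval -0.85 to 0.21, adjusted p = 0.369) for both siRNAs together. The siRNAs were not alike in level. At 144 h MTF1 was at 8.26 and 8.21 TPM in si-NT, at 9.35 and 7.8 TPM with siRNA 2, and at 5.28 and 4.2 TPM with siRNA 3. With siRNA 3 it fell by 0.69 (standard error 0.15, limma, adjusted p = 0.0115), a call lost without si-NT replicate 1, si-NT replicate 2 or siRNA 3 replicate 2 at 144 h (adjusted p = 0.0652, 0.0768 and 0.0899), and with siRNA 2 it was at 0.05 (95% interval -0.28 to 0.37, adjusted p = 0.851). The difference between the siRNAs was -0.74 (95% interval -1.07 to -0.41, adjusted p = 0.0951). The siRNA 3 libraries at 144 h were also those with the lowest MT1G and MT2A, and the part of MTF1 in this was not tested. At 72 h MTF1 was at 7.16 and 8.38 TPM in si-NT, 7.74 and 8.25 TPM with siRNA 2, and 6.21 and 5.64 TPM with siRNA 3, and neither siRNA was called. SLC30A1, the plasma membrane zinc exporter that is itself an MTF1 target, had log2 fold changes of 0.10 and 0.02 (adjusted p = 0.866 and 0.958), with an interval from -0.38 to 0.42 at 144 h. With siRNA 2 and siRNA 3 at 144 h it was at 0.26 and -0.23 (adjusted p = 0.198 and 0.267).

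The lists below are read against all genes tested, of which 1.68% were called at 72 h, and 13.6% were called higher and 10.8% lower at 144 h. Of 10 zinc exporters, 8 were tested. None was called at 72 h and 1 at 144 h, SLC30A4, which loads zinc into vesicles, with a rise of 0.64 (limma, adjusted p = 0.0421). Of 14 zinc importers, 11 were tested, and 4 rose and 1 fell at 144 h. SLC39A13, a Golgi and vesicle zinc transporter, rose by 0.65 at 72 h (adjusted p = 0.0337), the one importer called there, and by 1.07 at 144 h (adjusted p = 0.000343), from 12.93 and 11.22 TPM in si-NT to 23.97 to 28.12 TPM. SLC39A11 rose by 0.54 and SLC39A10 by 0.53, while SLC39A14, which also carries manganese and iron, fell by 0.51 (adjusted p = 0.0127, 0.0171 and 0.00827). The medians at 144 h were -0.01 for the exporters and 0.18 for the importers.

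**Figure D4:**
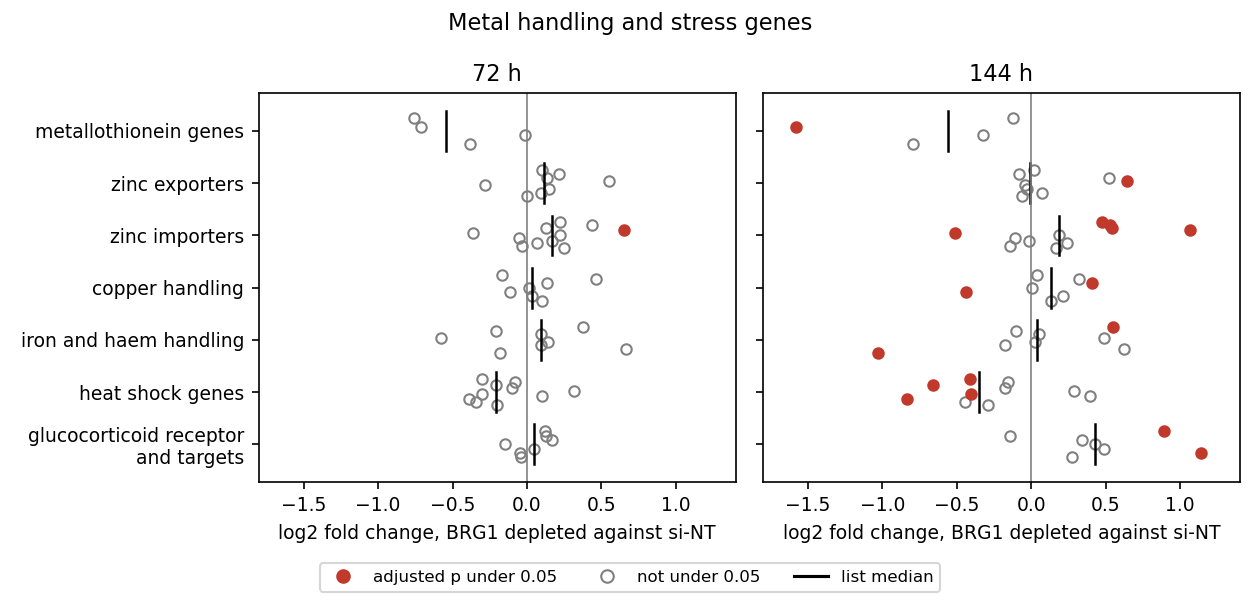
Log2 fold change, BRG1 depleted against si-NT, of the tested genes of each list at 72 h (left) and 144 h (right), with filled red points for an adjusted p under 0.05 and a vertical bar for the list median. The 4 metallothionein genes have a median of -0.55 at 72 h and -0.56 at 144 h, and the heat shock genes have the next lowest medians, -0.21 and -0.35.

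Among 7 tested genes of copper handling, none was called at 72 h. At 144 h SCO1, a mitochondrial copper chaperone, fell by 0.44 (limma, adjusted p = 0.0217) and CCS, the copper chaperone for superoxide dismutase, rose by 0.41 (adjusted p = 0.0253). Of 8 iron and haem genes, none was called at 72 h and 2 were at 144 h. TFRC, the transferrin receptor, fell by 1.03 (adjusted p = 0.00078), from 109.84 and 119.75 TPM in si-NT to 46.82 to 66.39 TPM, and ACO1, which binds iron-responsive elements in mRNA when iron is low, rose by 0.55 (adjusted p = 0.00221).

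Heavy metals and proteotoxic stress also induce heat shock genes, and 4 of the 10 tested fell at 144 h, beside 10.8% of all genes, with none called higher and none called at 72 h. HSPD1, the mitochondrial chaperonin, fell by 0.84 (limma, adjusted p = 0.000252), HSP90AA1 by 0.66 (adjusted p = 0.00284), the co-chaperone BAG3 by 0.41 (adjusted p = 0.0253) and the constitutive chaperone HSPA8 by 0.40 (adjusted p = 0.0358). The 6 not called went both ways. HSPB1 was at 0.39 (adjusted p = 0.248) and HSPA1B, with 32.87 to 60.65 TPM, at 0.29 (adjusted p = 0.23). HSPE1 was at -0.44 (adjusted p = 0.0857), HSPH1 at -0.29 (adjusted p = 0.0675) and DNAJB1 at -0.16 (adjusted p = 0.339). HSPA1A, at -0.18 (adjusted p = 0.757), was near the limit for testing, with at most 1.5 TPM. The list median was -0.35. Of 7 tested genes of the glucocorticoid receptor list, none was called at 72 h, and 2 rose at 144 h: TSC22D3 by 1.14 (adjusted p = 0.0406) and DUSP1 by 0.89 (adjusted p = 0.0187), beside 13.6% of all genes called higher. The si-NT libraries were far apart for TSC22D3, with 94.62 and 41.74 TPM at 144 h and 102.44 and 172.56 TPM at 72 h. In depleted cells at 144 h TSC22D3 was at 138.42 to 141.84 TPM. The receptor gene itself, NR3C1, was not tested, at 0.03 to 0.23 TPM in the 12 libraries, and the list median was 0.43.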

How the data were processed

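RNA-seq was carried out on 12 libraries of LNCaP cells. Per the methods, the authors added ERCC spike-ins, prepared stranded mRNA libraries, aligned the read pairs to hg19 (GRCh37) using STAR (version 2.4.0j in the submitters' processing notes), counted with featureCounts and determined TPM on GENCODE genes. The tool that made TPM is not given in the sources used here. The deposited values are TPM for 63568 genes and 92 spike-ins, and TPM is not a count, so no count model was used.

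TPM was taken to log2 with a pseudocount of 1. Genes that reached 1 TPM in 2 or more libraries (16337) were fitted with limma 3.58.1 (eBayes with trend, prior degrees of freedom 3.53, two-sided) in R 4.3.3, in 4 groups, or in 6 for single siRNAs, and Benjamini-Hochberg adjustment covers all genes tested. The procedure was tested on simulated data. Figures used Python 3.11.15 with matplotlib 3.10.9. Symbols and GRCh37 positions come from GENCODE release 44 lifted to GRCh37. The alternatives were a pseudocount of 0.1, no filter (33048 genes), median-of-ratios size factors, ERCC scaling, a replicate block, no trend, only 1 time point, 6 groups, and each of the 12 libraries left out, which for the single siRNAs was added after seeing the data, as were the values of MTF1 and SLC30A1 by siRNA.

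The members and gene lists were chosen with earlier results of these data known. Beside the members, the rule names the 5 genes most alike, MTF1, SLC30A1, SMARCA4 and at most 4 called genes per list, by the size of their change at 144 h. HSPA1A, HSPA1B, HSPB1, HSPE1, HSPH1, DNAJB1, NR3C1 and ATP7A are named outside it, after their values were seen. Some genes of these lists are not reported here.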

Additional observations from a re-analysis of the deposited data

How the results depend on the processing

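At 144 h, 1 of the 4 metallothionein genes tested was called. The count was 2 with median-of-ratios size factors and 2 with 6 groups, and with 1 library left out it ran from 0 (without either si-NT library at 144 h) to 3 (without siRNA 2 replicate 2 at 144 h). For BRG1 depleted cells at 144 h against 72 h the count was 1, and it was 3 with median-of-ratios size factors, 0 with ERCC scaling and between 1 and 3 with 1 library left out. The cause of these differences was not tested. With single siRNAs the count over both time points was 3, or 2 without the filter or without either si-NT library or siRNA 2 replicate 1 at 144 h. For siRNA 2 at 144 h alone it was 1, or 0 in those fits and with ERCC scaling. At 72 h, between the time points' changes, in si-NT over time and between the siRNAs it was 0 in every alternative. Of the log2 fold changes, MT1F with siRNA 3 at 144 h turned to -0.425 with ERCC scaling, and MT1X, siRNA 3 minus siRNA 2 at 144 h, to 0.004 with median-of-ratios size factors. With 1 library left out, MT1F at 144 h ran from -0.317 to 0.091, in depleted cells between the time points from -0.458 to 0.082, with siRNA 3 at 144 h from -0.033 to 0.362, and between the siRNAs at 72 h from -0.394 to 1.19. MT1X at 72 h ran from -0.19 to 0.161, with siRNA 2 from -0.2 to 0.15, with siRNA 3 from -0.179 to 0.172, and between the siRNAs from -0.096 to 0.139 at 72 h and -0.276 to 0.064 at 144 h. None of these MT1F and MT1X values was called. Where 1 library of an arm remained, it was assumed to vary like the other groups.

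Same-numbered replicates did not deviate together (correlations of -0.229 to 0.3 over 15 pairs of groups), so the numbers were not taken as pairs. With the replicate block 1 member was called at 144 h (MT1G, adjusted p = 0.0171), and the block changed no call of a member. The MT1G call with siRNA 2 at 144 h was lost without the filter (adjusted p = 0.082) and with ERCC scaling (adjusted p = 0.121), and MT1X with siRNA 3 was called with ERCC scaling (adjusted p = 0.0484). Depth is unknown for TPM, and each si-NT group rests on 2 libraries.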
